A study of Rattus norvegicus with 4 samples.

Results

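The 8 genes described here are the receptor for glucocorticoids and genes known to respond to it in liver and other tissues, namely Nr3c1, Hsd11b1, Fkbp5, Tsc22d3, Klf9, Sgk1, Dusp1, and Mt2A. They were taken by gene symbol, with earlier results of these data known, and all 8 were present among the 16992 genes measured. RNA from the left lateral lobe of the liver of 4 wild type male Wistar rats was sequenced, with 1 rat and 1 library for each of 4 conditions. The rats were 6 weeks old when purchased, were acclimatized for at least 1 week, and had no food or water for 2 h before anesthesia. Sevoflurane at 4.5% or desflurane at 6% was inhaled through a nose cone in 50% oxygen at 3 L/min, and all 4 rats were decapitated at about 3 PM. The 6 h libraries came from rats anesthetized for 6 h, and the sevoflurane control and desflurane control came from rats that had inhaled the same agent for under 1 min, until consciousness was lost. Both controls had therefore also been exposed to an anesthetic, to handling, and to 2 h without food. None of the 4 libraries came from an untreated rat. The 6 h rats remained under anesthesia, so their time without food was longer as well. A longer fast and a longer anesthesia cannot be told apart in these libraries. With 1 library per condition, no difference below has a replicate error or a test, and the spread between rats of one condition is unknown. The difference between the 2 controls is given with each gene as the nearest measure of variation between rats, although it also contains the difference between the agents.

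Glucocorticoids such as corticosterone, the main glucocorticoid of the rat, are released by the adrenal cortex during stress and fasting and with the daily rhythm. The hormone binds a receptor that is held in the cytoplasm by chaperones of the Hsp90 and Hsp70 families, and the receptor then enters the nucleus and binds DNA at glucocorticoid response elements. In liver this raises enzymes of gluconeogenesis and amino acid breakdown, and in many tissues it raises genes that dampen the receptor itself, inflammation, and kinase signaling. Most of the 8 genes also respond to other signals, such as cyclic AMP, growth factors, metals, or cell stress. Corticosterone itself was not analysed here.

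Values are TPM, a relative abundance of transcripts that is corrected for gene length, so that levels of different genes can be compared. A gene is called higher or lower by the rule of the study, which asks for a TPM above 2 in the higher library and a difference of more than 2-fold. Between 9474 and 9695 genes per library were above 2 TPM, and the ratio of coverage to FPKM corresponded to 4.47 to 5.40 Gb of aligned sequence per library. Over all 9136 genes above 2 TPM in the 4 libraries, the median log2 change was 0.05 for sevoflurane and 0.12 for desflurane, each against its own control. The 10 hepatocyte markers, led by albumin (Alb), were at a summed 137027 to 154778 TPM, with 0 of 10 called by either agent against its own control. The sevoflurane control stood apart from the other libraries. All 10 pancreatic acinar markers were called higher in the sevoflurane control than in the sevoflurane 6 h library, at a summed 43.5 TPM compared with 0.746, 2.35, and 3.99 TPM in the other libraries (sevoflurane 6 h, desflurane control, and desflurane 6 h). Each member is therefore also given against the control of the other agent, which for sevoflurane is the value without this library. As whole liver was sequenced, a change in the number of cells of a type and a change in RNA per cell cannot be told apart.

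Of the 8 genes, 5 were higher in both 6 h libraries than in either control, namely Fkbp5, Tsc22d3, Klf9, Hsd11b1, and Mt2A. Nr3c1 was lower in both 6 h libraries than in either control, and the 6 h and control values of Sgk1 and Dusp1 overlapped. Among the 9993 genes above 2 TPM in at least 1 library, 33.3% were above both controls in this way and 13.3% were below both. Against its own control, sevoflurane gave 0 of 8 genes called higher, compared with 2.23% of the 9754 genes that could be called, and 1 of 8 called lower (Sgk1), compared with 3.3%. Desflurane gave 2 of 8 called higher (Klf9 and Mt2A), compared with 2.79% of 9855 genes, and 1 of 8 called lower (Dusp1), compared with 1.48%. Their median log2 change was 0.24 for sevoflurane and 0.41 for desflurane.

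**Figure D1:**
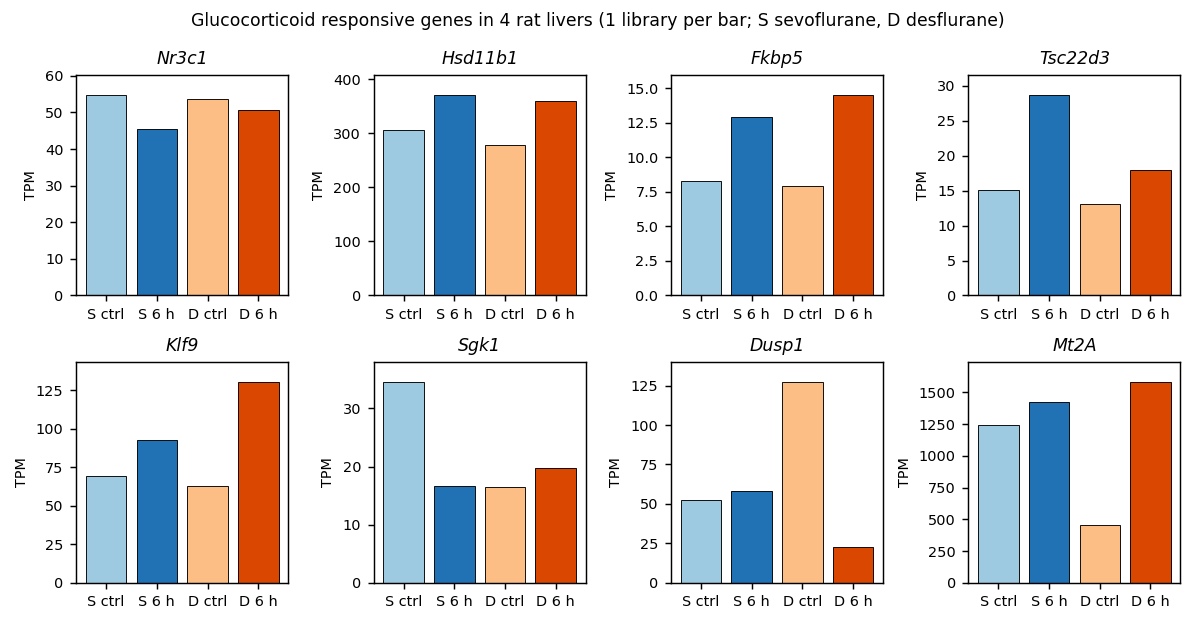
Level in TPM (vertical axes, each starting at 0) of the 8 glucocorticoid responsive genes in the sevoflurane (S) and desflurane (D) control and 6 h libraries, with 1 library per bar and therefore no error bars. Fkbp5, Tsc22d3, Klf9, Hsd11b1, and Mt2A were higher in both 6 h libraries than in both controls, whereas the high bars of Sgk1 and Dusp1 are controls.

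The controls themselves differed by more than 2-fold for 3 of the 8 genes. Dusp1 was 2.42-fold higher in the desflurane control than in the sevoflurane control, whereas Sgk1 was 2.1-fold lower and Mt2A 2.74-fold lower. The background for this pair was 1.17% of 9756 genes called higher and 1.17% called lower. For the other 5 genes, the controls differed by 1.15-fold or less. The calls against the control of the other agent were accordingly different: the sevoflurane 6 h library had 2 of 8 genes called higher than the desflurane control (Tsc22d3 and Mt2A, background 2.52%) and 1 called lower (Dusp1, background 2.59%). The desflurane 6 h library had 0 of 8 genes called higher than the sevoflurane control (background 2.84%) and 1 called lower (Dusp1, background 1.58%). Between the 6 h libraries, 0 of 8 genes were called higher with desflurane than with sevoflurane (background 2.76%) and 1 was called lower (Dusp1, background 1.17%). These comparisons share libraries and are not independent of each other.

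**Figure D2:**
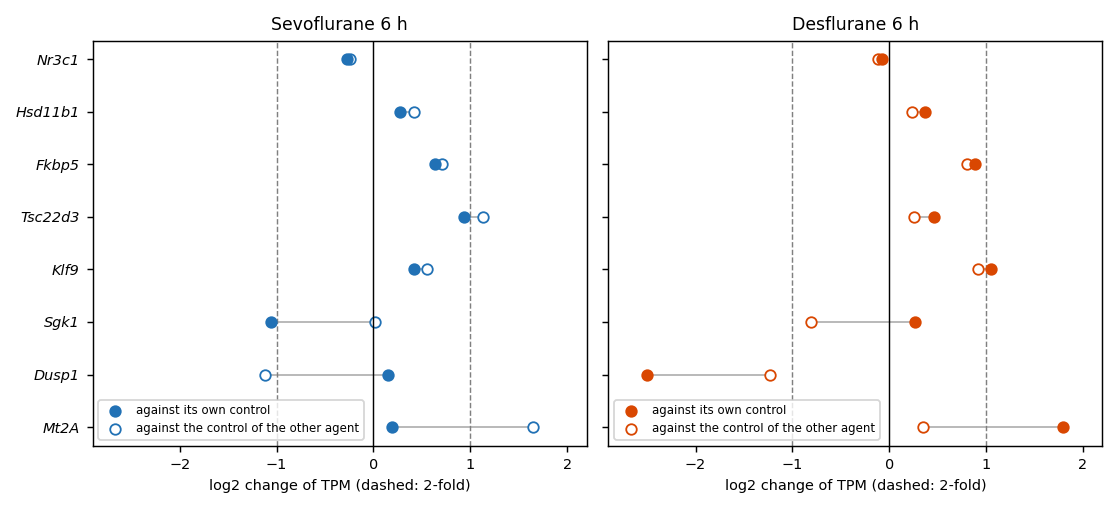
Log2 change in TPM (horizontal axis) of the 8 genes after 6 h of sevoflurane (left) or desflurane (right) against the control of the same agent (filled points) and of the other agent (open points), with dashed lines at 2-fold. The points of Nr3c1, Hsd11b1, Fkbp5, Tsc22d3, and Klf9 lie close together, whereas those of Sgk1, Dusp1, and Mt2A are far apart because their controls differed by more than 2-fold.

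Nr3c1 encodes the glucocorticoid receptor, a transcription factor of the nuclear receptor family. The files placed it on the minus strand of rn6 at chr18:31728373-32670678, a span that also holds 4 other annotated genes. Nr3c1 was at 54.9 TPM in the sevoflurane control, 45.4 TPM after 6 h of sevoflurane, 53.6 TPM in the desflurane control, and 50.7 TPM after 6 h of desflurane. The 6 h values were the lower ones, but the 4 libraries lay within 1.21-fold of each other. The level after 6 h was 0.83 times the control with sevoflurane and 0.95 times the control with desflurane.

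The chaperones, co-chaperones, and co-regulators of the receptor formed a list of 25 measured genes. Sevoflurane had 1 of 25 called higher (background 2.23%) and 0 called lower (3.3%). Desflurane had 0 called higher (background 2.79%) and 2 called lower (1.48%). Against the control of the other agent, 0 of 25 were called for either agent, so that these calls rest on narrow margins or on the control. Hspa8, the constitutive Hsp70 chaperone, was at 237 TPM in the sevoflurane control and 482 TPM after 6 h, a 2.04-fold increase, whereas it was at 255 TPM in the desflurane control and 156 TPM after 6 h. Fkbp4, the co-chaperone that favors hormone binding and nuclear entry, was at 46.3 and 62.4 TPM in the sevoflurane pair and at 66.3 and 24.4 TPM in the desflurane pair, 2.72-fold lower after desflurane. Hsp90aa1, an Hsp90 chaperone named after its values were seen, was 1.72 times its control with sevoflurane and 2.03-fold lower with desflurane. Between the 6 h libraries, 5 of the 25 genes were called lower with desflurane than with sevoflurane, compared with 1.17% of 9829 genes, and none was called higher. The abundant Hsp90ab1 and the Hsp70 partner Dnaja1 were 1.73-fold and 1.5-fold lower with desflurane than with sevoflurane at 6 h, without a call. Between the controls, 0 of the 25 genes were called. Within the list, the 13 chaperones and co-chaperones, set apart after the values were seen, were above their control in 11 cases with sevoflurane and below it in 10 cases with desflurane. Over the full list of 25, 18 were above their control with sevoflurane and 15 below it with desflurane. No limit of size was set, and some changes were small, such as 1.04-fold for Ppp5c with sevoflurane and 0.97 for Dnaja1 with desflurane. The share of all genes above or below their control was not calculated, so these counts are a description only.

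**Figure D3:**
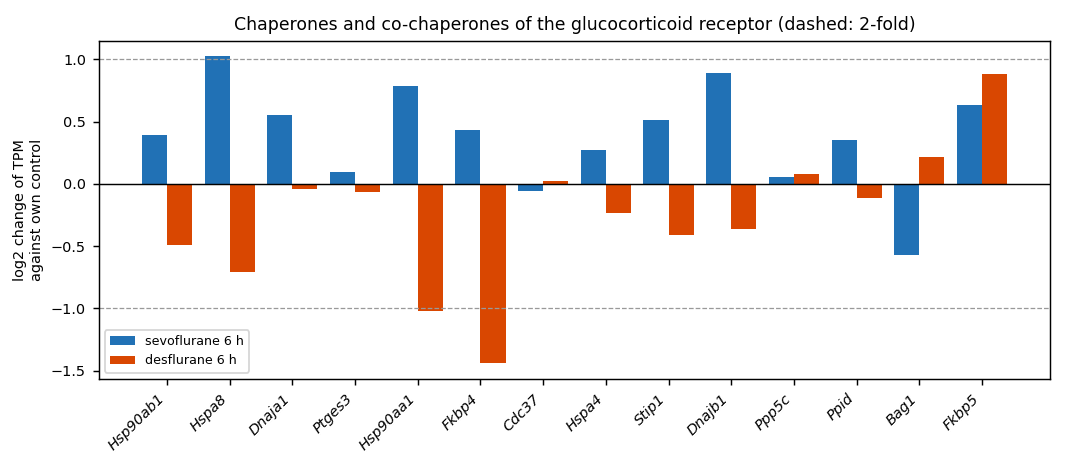
Log2 change in TPM (vertical axis) of 13 chaperones and co-chaperones of the glucocorticoid receptor, with Fkbp5 at the right, after 6 h of sevoflurane (blue) or desflurane (orange) against the control of the same agent, 1 library each and therefore no error bars. The sevoflurane bar is positive for 11 of the 13 and the desflurane bar is negative for 10 of them, whereas both bars of Fkbp5 are positive. The 13 were set apart after the values were seen, and the counts include small changes.

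Hsd11b1 encodes the enzyme of the endoplasmic reticulum that regenerates active glucocorticoid from its inactive keto form inside the hepatocyte, and so sets the hormone level that the receptor meets. It lay on the minus strand at chr13:111946626-111972603 and was the second most abundant of the 8 genes. Its level was 306 TPM in the sevoflurane control, 371 TPM after 6 h of sevoflurane, 279 TPM in the desflurane control, and 360 TPM after 6 h of desflurane. Both 6 h values were above both controls, although by little: the changes were 1.21-fold with sevoflurane and 1.29-fold with desflurane, and the smallest of the 4 pairwise ratios was 1.18. Larger increases were found for 23.9% of 9251 genes with sevoflurane and 20.7% of 9412 genes with desflurane, among genes above 2 TPM in both libraries of the pair.

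Among 10 further genes of steroid metabolism and transport, 1 was called higher by both agents (background 2.23% with sevoflurane and 2.79% with desflurane). This was Cyp17a1, the hydroxylase and lyase on the route to androgens, at 24.5 and 73.8 TPM in the sevoflurane pair and 25.8 and 52.8 TPM in the desflurane pair. H6pd, which supplies the cofactor of Hsd11b1 and was named after its values were seen, was 1.16 times its control with sevoflurane and 1.93 times with desflurane. Serpina6, the plasma carrier of corticosterone, was at 1103 TPM in the sevoflurane control, 659 TPM after 6 h of sevoflurane, 1109 TPM in the desflurane control, and 1039 TPM after 6 h of desflurane. The sevoflurane 6 h library was the low one for this carrier, at 0.60 times its control, without reaching the call.

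Fkbp5 encodes a co-chaperone of Hsp90 that lowers the affinity of the receptor for its hormone, and its induction by the receptor forms a short negative feedback loop. It lay on the minus strand at chr20:7976704-8061724. Fkbp5 was at 8.31 TPM in the sevoflurane control, 12.9 TPM after 6 h of sevoflurane, 7.88 TPM in the desflurane control, and 14.5 TPM after 6 h of desflurane. Both controls were low and within 1.05-fold of each other, and both 6 h libraries were higher. The increase was 1.55-fold with sevoflurane and 1.84-fold with desflurane, and it was 1.64-fold and 1.75-fold against the control of the other agent. None of these ratios passed the 2-fold call. Increases larger than that of Fkbp5 were found for 5.63% of genes with sevoflurane and 3.06% with desflurane, and 1.76% of the 9993 genes were at least 1.5-fold above both controls in both 6 h libraries. It was also the least deeply covered of the 8 genes, with a mean coverage of 14.8 to 24.5 reads per base. Of 13 other measured members of the Fkbp family, 4 were above both controls in both 6 h libraries, compared with 33.3% of genes. The changes of these 4 were 1.28-fold or less against their own controls. Of the 13, 0 were called higher by either agent (background 2.23% with sevoflurane and 2.79% with desflurane).

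The sequences just upstream of the genes were searched for short motifs on both strands, to show what the promoters hold near the start. The windows are the 250 bases before each start in RefSeq (GRCr8, a different build from the rn6 coordinates of the files), and 12 windows were found for 7 of the 8 genes. The motifs were the glucocorticoid response element (GNACA and TGTNC, spaced by 3 bases) and its partial site AGAACA, the cyclic AMP response element TGACGTCA and the TGACG it contains, the metal response elements TGCACNC and TGCGCNC, and the E-box CACGTG. Among all 33469 windows, these were found in 0.373%, 17.5%, 1.59%, 18.2%, 10.3%, 11.8%, and 5.59%, in that order. Neither the full nor the partial glucocorticoid element was found in the 12 windows. A match is only a run of letters, and its absence says nothing on more distant elements.

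Tsc22d3 encodes the glucocorticoid-induced leucine zipper protein, which restrains inflammatory transcription factors. The annotated row was on the minus strand at chrX:111884285-111887906. Tsc22d3 was at 15.1 TPM in the sevoflurane control, 28.7 TPM after 6 h of sevoflurane, 13.1 TPM in the desflurane control, and 18.0 TPM after 6 h of desflurane. Both 6 h libraries were above both controls, and the sevoflurane 6 h library was the highest. The increase was 1.91-fold with sevoflurane and 1.37-fold with desflurane, and against the control of the other agent it was 2.19-fold, which passed the call, and 1.19-fold. An increase larger than that with sevoflurane was found for 1.78% of genes, whereas 14.8% of genes had a larger increase than Tsc22d3 with desflurane. The transcripts assembled by StringTie over this gene, which extend beyond the annotated row, gave 16.0, 32.2, 14.6, and 21.2 TPM in the same order and a 2.01-fold increase with sevoflurane. Of its RefSeq starts, the one whose upstream window (GRCr8, minus strand, chrX:109010035-109010284) holds TGACG at 2 places is shown here, 5′ to 3′, with these letters in capitals.
Tsc22d3: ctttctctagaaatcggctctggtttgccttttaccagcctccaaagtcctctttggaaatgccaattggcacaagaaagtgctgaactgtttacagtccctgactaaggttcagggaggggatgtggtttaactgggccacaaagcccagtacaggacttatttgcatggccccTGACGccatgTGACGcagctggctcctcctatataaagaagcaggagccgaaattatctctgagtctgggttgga

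Of its 3 paralogs, Tsc22d1 was in the other direction, at 193 and 33.7 TPM in the sevoflurane pair and 153 and 44.8 TPM in the desflurane pair. This was a call lower by both agents, 5.74-fold with sevoflurane and 3.40-fold with desflurane, whereas Tsc22d2 and Tsc22d4 were called by neither and were above both controls in both 6 h libraries. Tsc22d2 was 1.22-fold and 1.23-fold higher and Tsc22d4 1.08-fold and 1.31-fold higher with sevoflurane and desflurane, respectively.

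Klf9 encodes a Krüppel-like transcription factor that is induced by glucocorticoid and thyroid hormone. It lay on the plus strand at chr1:240908483-240933198. Klf9 was at 69.4 TPM in the sevoflurane control, 92.6 TPM after 6 h of sevoflurane, 63.2 TPM in the desflurane control, and 131 TPM after 6 h of desflurane. Both 6 h libraries were above both controls, with the desflurane 6 h library the highest. The change was 1.34-fold with sevoflurane and 2.07-fold with desflurane, and the latter was called. The call rests on a narrow margin, since the ratio was 1.88 against the sevoflurane control. In the assembled transcripts the desflurane 6 h library was at 86.9 TPM, which gave 1.38-fold, whereas the other 3 libraries had the same values as in the annotated row. A larger increase than that of Klf9 was found for 1.85% of genes with desflurane and 13.6% with sevoflurane.

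Of 14 measured relatives of Klf9, 3 were called higher with desflurane (background 2.79%) and 0 with sevoflurane (background 2.23%). Klf13 was at 21.9 and 28.2 TPM in the sevoflurane pair and 13.3 and 43.4 TPM in the desflurane pair, the largest increase of the family with desflurane at 3.26-fold. Klf15 was 2.1-fold higher and Klf11, named after its values were seen, 2.30-fold higher. No test of this difference was made. Against the sevoflurane control, these 3 were not called with desflurane, at 1.98-fold for Klf13, 1.80-fold for Klf11, and 1.09-fold for Klf15, whereas Klf10 was called higher at 2.60-fold.

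Sgk1 encodes the serum and glucocorticoid regulated kinase, which acts on ion channels and transporters. It lay on the minus strand at chr1:24185451-24193567. Sgk1 was at 34.6 TPM in the sevoflurane control, 16.6 TPM after 6 h of sevoflurane, 16.4 TPM in the desflurane control, and 19.8 TPM after 6 h of desflurane. A single library, the sevoflurane control, was high, and the other 3 lay close together. Against that control Sgk1 was called lower after sevoflurane, by 2.08-fold, but the same library was 1.01 times the desflurane control. The desflurane 6 h library was 1.20 times its own control and 0.57 times the sevoflurane control. The sevoflurane control was also the library with acinar RNA, and the part of that RNA in the Sgk1 level was not tested. Among 9 measured paralogs and pathway genes of Sgk1, sevoflurane had 1 called higher (background 2.23%) and 1 called lower (3.3%). Desflurane had 1 called higher (background 2.79%) and 0 called lower (1.48%). Scnn1a, the alpha subunit of the epithelial sodium channel that the kinase keeps at the membrane, was the gene called higher by both agents. It was at 3.25 and 11.3 TPM in the sevoflurane pair and at 1.57 and 12.8 TPM in the desflurane pair. The controls of Scnn1a also differed, with the desflurane control 2.07-fold lower. Against the control of the other agent it was 7.21-fold higher with sevoflurane and 3.93-fold higher with desflurane. The paralog Sgk2 was at 10.7 and 2.84 TPM in the sevoflurane pair, called lower by 3.76-fold, and at 9.21 and 6.70 TPM in the desflurane pair.

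Dusp1 encodes a phosphatase that switches off mitogen-activated protein kinases, and it is both a glucocorticoid target and an immediate early gene. It lay on the plus strand at chr10:16970642-16973425. Dusp1 was at 52.7 TPM in the sevoflurane control, 58.4 TPM after 6 h of sevoflurane, 127 TPM in the desflurane control, and 22.4 TPM after 6 h of desflurane. The sevoflurane pair was nearly level, at a ratio of 1.11, whereas the desflurane pair held the highest and the lowest of the 4 values. Against its own control, Dusp1 was called lower after desflurane by 5.67-fold, and only 0.0637% of genes had a larger decrease. The desflurane 6 h library was below every other library, as it was also called lower than the sevoflurane control by 2.35-fold and than the sevoflurane 6 h library by 2.60-fold. Thus the direction did not rest on the high desflurane control, but the size did. Of 19 measured relatives in the Dusp family, 0 were called lower with desflurane (background 1.48%). With sevoflurane Dusp6, a phosphatase of extracellular signal-regulated kinase, was called lower, at 28.4 and 11.7 TPM, and it was at 37.9 and 21.6 TPM in the desflurane pair.

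The window before the start of Dusp1 (GRCr8, plus strand, chr10:17184603-17184852) was the only one of the 12 that holds the full cyclic AMP response element, which begins 124 bases before the start. It is shown for that reason, 5′ to 3′, with TGACGTCA, a further TGACG, and the E-box CACGTG in capitals.
Dusp1: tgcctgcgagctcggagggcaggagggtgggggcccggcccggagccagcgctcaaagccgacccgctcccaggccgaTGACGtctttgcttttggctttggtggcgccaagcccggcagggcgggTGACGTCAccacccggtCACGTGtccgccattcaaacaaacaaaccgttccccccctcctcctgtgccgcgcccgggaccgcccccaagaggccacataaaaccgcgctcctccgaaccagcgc

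In a list of 20 immediate early genes, which like Dusp1 respond within minutes to stimulation, desflurane had 2 called higher and 0 called lower. Sevoflurane had 1 called higher and 0 called lower. The backgrounds were 2.79% and 1.48% with desflurane and 2.23% and 3.3% with sevoflurane. Egr1 was 7.96-fold higher after desflurane, from 11.6 to 92.0 TPM, and was at 24.5 and 31.4 TPM in the sevoflurane pair. Zfp36, a protein that destabilizes inflammatory mRNAs, was called higher by both agents, at 43.6 and 97.4 TPM in the sevoflurane pair and 41.0 and 105 TPM in the desflurane pair. Of the 20 genes, 13 passed 2 TPM in any library and could be called. Some followed Dusp1 in part: Jun, named after its values were seen, was like Dusp1 called higher in the desflurane control than in the sevoflurane control, by 2.50-fold, and was at 45.2 TPM there and 27.5 TPM after 6 h of desflurane. Atf3, named likewise, was called higher in the desflurane control by 3.2-fold, at levels of 0.789 to 2.53 TPM. Myc was 1.97-fold lower after desflurane, just short of the call.

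Mt2A encodes a metallothionein, a small cysteine-rich protein that binds zinc and copper and is induced by metals and by glucocorticoids. It lay on the minus strand at chr19:11307966-11308740 and was the most abundant of the 8 genes. Mt2A was at 1245 TPM in the sevoflurane control, 1424 TPM after 6 h of sevoflurane, 455 TPM in the desflurane control, and 1583 TPM after 6 h of desflurane. The desflurane control was the one low library, and the 2 values at 6 h were within 1.11-fold of each other. The change was 3.48-fold with desflurane, which was called, and 1.14-fold with sevoflurane. With the controls exchanged these values became 1.27-fold and 3.13-fold, so that each depended on the control.

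The neighboring gene Mt1, which lies 4958 bp away on rn6 (chr19:11301991-11303007) and encodes a near relative of Mt2A, had the same low desflurane control. Mt1 was at 3640 TPM in the sevoflurane control, 2561 TPM after 6 h of sevoflurane, 1676 TPM in the desflurane control, and 3509 TPM after 6 h of desflurane. It was called higher after desflurane by 2.09-fold, and was 0.70 times its control after sevoflurane. As the genes are similar in sequence, some reads may be shared between them, and their single levels are uncertain to that extent. The ratio of Mt2A to Mt1 within a library, chosen after the values were seen, was 0.342 in the control and 0.556 at 6 h in the sevoflurane pair, and 0.272 and 0.451 in the desflurane pair. This ratio was higher in both 6 h libraries than in both controls, by 1.63-fold with sevoflurane and 1.66-fold with desflurane, and its lowest 6 h value was 1.32 times its highest control value.

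**Figure D4:**
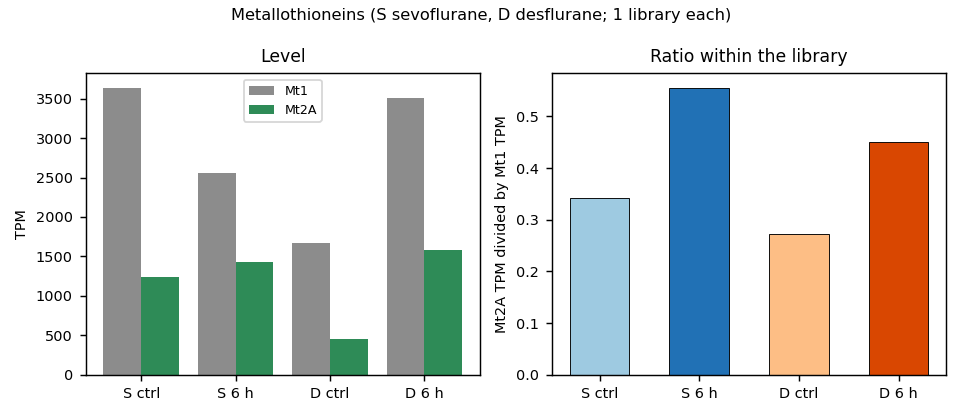
Left, levels in TPM of Mt1 (grey) and Mt2A (green) in the 4 libraries. Right, Mt2A divided by Mt1 in each library, with 1 library per bar and no error bars. Both levels were lowest in the desflurane control, whereas the ratio was higher in the 6 h libraries (0.556 and 0.451) than in the controls (0.342 and 0.272).

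Upstream of both metallothionein genes the windows hold several metal response elements, 4 in Mt2A (GRCr8, minus strand, chr19:10838709-10838958) and 6 in Mt1 (GRCr8, minus strand, chr19:10832976-10833225). They are shown 5′ to 3′ for comparison of their arrangement, with TGCACNC and TGCGCNC on either strand in capitals. Also in capitals are the E-box CACGTG in Mt2A and, in Mt1, TGACG read on the opposite strand. In both genes the element nearest to the start lies 55 bases before it.
Mt2A: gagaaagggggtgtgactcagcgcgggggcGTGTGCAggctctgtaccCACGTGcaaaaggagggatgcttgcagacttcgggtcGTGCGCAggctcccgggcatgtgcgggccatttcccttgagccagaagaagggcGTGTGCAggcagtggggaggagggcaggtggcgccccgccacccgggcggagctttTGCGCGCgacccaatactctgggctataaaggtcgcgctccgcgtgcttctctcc
Mt1: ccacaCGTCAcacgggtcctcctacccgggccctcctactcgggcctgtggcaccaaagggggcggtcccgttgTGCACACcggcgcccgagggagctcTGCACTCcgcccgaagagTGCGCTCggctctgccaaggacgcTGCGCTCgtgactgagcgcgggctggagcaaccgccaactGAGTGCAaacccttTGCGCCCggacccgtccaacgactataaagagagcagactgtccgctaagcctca

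A wider set of genes known to be induced by glucocorticoids was compared with the 8 genes. It held 26 genes induced in several tissues and 21 hepatic enzymes and secreted proteins. The set was chosen with earlier results of these data known, so its shares describe these libraries and are not independent support. Many of the hepatic genes are also induced by glucagon and fasting. Of these 47 genes, sevoflurane had 8 called higher and 1 called lower, against backgrounds of 2.23% and 3.3%, and desflurane had 15 called higher and 1 called lower, against 2.79% and 1.48%. With the control of the other agent, both had 11 called higher and 1 called lower. The median log2 change with a pseudocount of 1 TPM was 0.14 with sevoflurane and 0.47 with desflurane, compared with 0.05 and 0.11 over all genes. Both 6 h libraries were above both controls for 24 of the 45 genes that passed 2 TPM in any library, and below both for 4, compared with 33.3% and 13.3% of all genes above that limit.

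The genes of the set that were called higher by both agents against their own controls were Zbtb16, Sds, Got1, Asl, and Igfbp1. Zbtb16, a zinc finger transcription factor, was at 3.59 and 13.8 TPM in the sevoflurane pair and 4.51 and 19.2 TPM in the desflurane pair. Got1, an aminotransferase of aspartate, was at 38.8 and 189 TPM in the sevoflurane pair and 40.3 and 147 TPM in the desflurane pair. In both genes the controls were close and the 6 h libraries well above them, as for Fkbp5. Igfbp1, a binding protein of insulin-like growth factors that insulin represses, was at 35.1 and 74.7 TPM in the sevoflurane pair and 7.94 and 136 TPM in the desflurane pair, so that its 17.2-fold increase with desflurane started from a control 4.42-fold below the other. Per1, a clock gene that glucocorticoids induce, was at 8.92 and 16.8 TPM in the sevoflurane pair and 4.46 and 24.4 TPM in the desflurane pair. Here too the desflurane control was the lowest library, as for Mt2A.

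Exceptions were present in each direction. The 4 genes of the set below both controls at 6 h were Per2, Tgm2, Slc19a2, and Adra1b. None of them was called by either agent. Tgm2, among the 3 most abundant of its list, was at 70.7 and 47.7 TPM in the sevoflurane pair and 66.3 and 39.5 TPM in the desflurane pair. Per2, a period gene like Per1, was at 10.5 and 8.95 TPM in the sevoflurane pair and 11.0 and 6.12 TPM in the desflurane pair. Per2, Slc19a2, and Adra1b were named after their values were seen. Bcl6, a transcriptional repressor, was at 50.7 TPM in the sevoflurane control and 16.6 TPM after 6 h of sevoflurane. It was at 5.87 TPM in the desflurane control and 8.49 TPM after 6 h of desflurane. Like Sgk1, it was highest in the sevoflurane control and was called lower with sevoflurane against it. Unlike Sgk1, it was called higher after sevoflurane than in the desflurane control, by 2.82-fold. Ddit4, an inhibitor of the growth kinase mTOR, was 3.05-fold higher after sevoflurane and 2.01-fold lower after desflurane. It was at 3.34 and 10.2 TPM in the sevoflurane pair and 5.94 and 2.95 TPM in the desflurane pair. Against the control of the other agent it was called by neither, at 1.71-fold higher with sevoflurane and 1.13-fold lower with desflurane. Tat, the aminotransferase of tyrosine and a classical hepatic target named after its values were seen, was at 234 and 464 TPM in the sevoflurane pair, a ratio of 1.99, and at 212 and 241 TPM in the desflurane pair. The gluconeogenic genes Pck1 and G6pc, also named after their values were seen, were 2.30-fold and 4.86-fold higher after desflurane and 0.91 and 1.09 times their control after sevoflurane. In both, the desflurane control was the lowest of the 4 libraries.

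**Figure D5:**
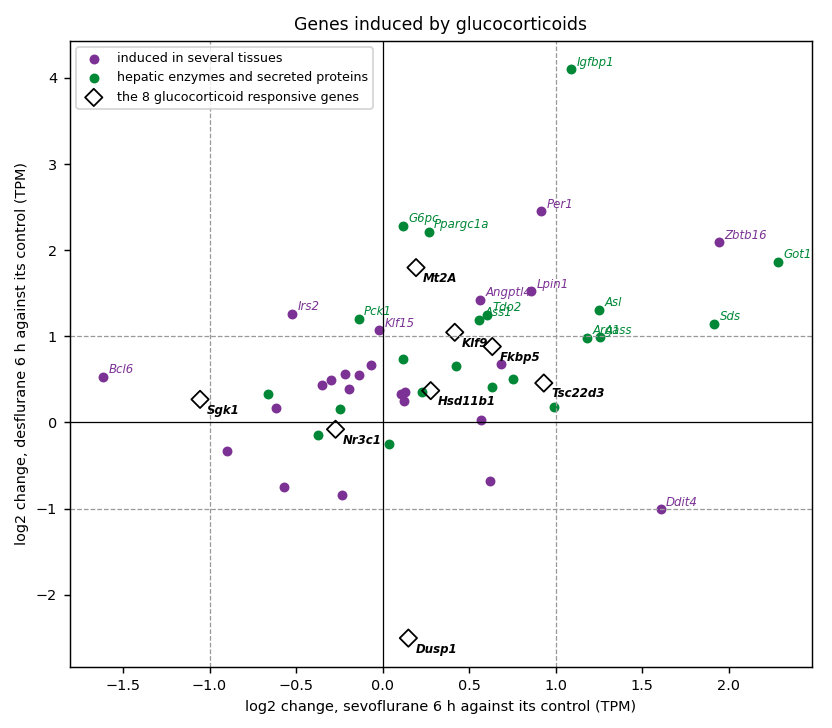
Log2 change in TPM after 6 h of sevoflurane (horizontal axis) and of desflurane (vertical axis), each against its own control, for 45 genes induced by glucocorticoids (dots, named where called) and the 8 glucocorticoid responsive genes (diamonds), with dashed lines at 2-fold. Of the 8 genes, Dusp1 lies far below the others, at a log2 change of -2.50 with desflurane, and Sgk1 lies to the left, at -1.05 with sevoflurane.

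Of 18 genes that glucocorticoids repress, most of them cytokines, chemokines, and adhesion molecules, 8 were above 2 TPM in any library and 3 were at 0 in all. Sevoflurane had 3 called lower and 0 called higher, and desflurane had 1 called lower and 1 called higher. Over all genes, 3.3% were called lower and 2.23% higher with sevoflurane, and 1.48% and 2.79% with desflurane. Irf1, a transcription factor of the interferon response, was called lower by both, at 23.8 and 4.71 TPM in the sevoflurane pair and 19.1 and 8.65 TPM in the desflurane pair. Il1b, a cytokine of macrophages, was at 4.50 and 2.34 TPM in the sevoflurane pair and at 2.26 and 4.71 TPM in the desflurane pair. Markers of immune cells moved in the sevoflurane pair as well: 3 of 10 Kupffer cell markers and 4 of 11 lymphocyte markers were called lower (background 3.3%). Only 5 of the 11 lymphocyte markers exceeded 2 TPM in any library. Among these, the most abundant, Cd4, was not called, at 19.1 and 18.3 TPM in the sevoflurane pair. The T cell genes Cd3e, Cd3d, and Cd3g, named after their values were seen, were at 0.692 TPM or less in every library. Which cells gave the Cd4 signal was not tested, so its level cannot be read as that of lymphocytes. The summed level of the Kupffer cell markers was 719, 452, 561, and 684 TPM in the sevoflurane control, sevoflurane 6 h, desflurane control, and desflurane 6 h libraries, and that of the lymphocyte markers was 45.1, 26.7, 38.3, and 42.2 TPM. Their part in these decreases was not tested. Over the same libraries, 0 of 8 neutrophil markers exceeded 2 TPM.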

How the data were processed

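Liver RNA of 4 rats was sequenced as paired ends after removal of ribosomal RNA, 1 library per condition. The authors trimmed the reads with sickle, mapped them to rn6 with HISAT2, sorted them with SAMtools, and ran StringTie with the refGene annotation of that build. The deposited tables give for each gene the mean coverage (a signal not normalized for depth), FPKM, and TPM. The deposited TPM signal is scaled so that the rows StringTie assembled have a fixed sum, and the annotated rows, on the same scale, repeat the same loci. Annotated rows were used, between 495 and 518 rows per library of 200 bp or shorter were removed, and TPM of rows with the same symbol was summed. The deposited tables used here hold no read counts, so depth is given as coverage and no interval could be calculated.

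Fold changes were calculated with no pseudocount, and the medians of lists with a pseudocount of 1 TPM. Conditions were taken from the labels. No test was made, as each condition has 1 library. The 8 genes and the lists were chosen with earlier results of these data known. Named genes are the 8 genes and, from each list, the 3 most abundant, those called the same way by both agents, and the largest increase and decrease for each agent among genes above 2 TPM in both libraries. Any other gene is said to be named after its values, in the text or in the closing section. For each of the 8 genes that was called for at least 1 agent against its own control, the 3 genes nearest in pattern were also named. Alternatives covered the TPM and fold limits, a pseudocount, median-of-ratios scaling, FPKM, the length filter, assembled rows, and the control. The call rule was run on simulated data for each agent with 16992 genes, of which 200 were changed 4-fold. It recovered 200 with 0 false calls. Only a 4-fold change was used, and recovery near the 2-fold limit was not tested. The rate of false calls in the 4 libraries was not tested either. Promoter windows came from RefSeq (GRCr8). Python 3.11.15, numpy 2.4.6, pandas 2.3.3, and matplotlib 3.10.9 were used.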

Additional observations from a re-analysis of the deposited data

Results flagged for a closer look

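For 28 genes, the change after 6 h went one way with sevoflurane and the other way with desflurane, each against its own control. They were found among the 8 glucocorticoid responsive genes and those genes of the related lists that were called for either agent or are named by rule. The differences between agents were not tested, as each rests on 4 libraries, and no limit of size was set, so that small ones are included. The share of all genes with opposite directions was not calculated, so the count of 28 is a description only. Values are the log2 change with desflurane minus that with sevoflurane. Among the 8 genes, it was 1.32 for Sgk1, which was high in the sevoflurane control, and -2.65 for Dusp1, which was high in the desflurane control. Among the chaperones of the receptor, it was -1.73 for Hspa8, -1.81 for Hsp90aa1, -1.87 for Fkbp4, -0.88 for Hsp90ab1, and -0.60 for Dnaja1, and none of these was called between the controls. In steroid metabolism, it was 1.60 for Hsd3b5 and 1.29 for Akr1d1.

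Among genes induced by glucocorticoids, the difference was -2.62 for Ddit4, 2.15 for Bcl6, 1.78 for Irs2, 1.34 for Pck1, 1.09 for Klf15, 0.99 for Glul, and -0.29 for Orm1. Among genes repressed by them, it was 2.0 for Il1b and 0.58 for Ccl5. For relatives of the 8 genes, it was 1.57 for Mt1, 1.44 for Klf4, 0.72 for Dusp7, 0.62 for Dusp11, and -0.20 for Fkbp1a. In the immediate early and clock lists, it was 0.46 for Jund, 0.59 for Ier3, 0.85 for Ier5, 0.98 for Nr1d1, and 0.78 for Dbp. Hsp90aa1, Irs2, and Pck1 were named after their values were seen.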

How the results depend on the processing

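Of the 16 changes of the 8 genes (2 agents), 12 kept their direction under all 8 alternative settings that give a fold change. The exceptions were Nr3c1 with desflurane when assembled rows were used, whose sum includes other genes within its span, and Sgk1 with both agents and Dusp1 with sevoflurane when the other control or, except for Sgk1 with sevoflurane, the mean of the 2 controls was used. Against the desflurane control, the log2 change of Sgk1 with sevoflurane went from -1.05 to 0.018. Assembled rows repeat the reads of annotated rows, so that adding them counts the same reads again, and using them in their place was chosen after seeing the data.

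The number of the 8 genes called higher with desflurane, 2, became 1 with FPKM, median-of-ratios scaling, assembled rows added or in place, or a fold limit of 3, and 0 with the control of the other agent or the mean of the 2 controls. The number called higher with sevoflurane, 0, became 1 with assembled rows in place or the mean of the controls and 2 with the control of the other agent or a fold limit of 1.5. The 1 gene called lower with sevoflurane (Sgk1) was lost, leaving 0, with assembled rows in place, a fold limit of 3, or the mean of the controls. When the other control was used the count was again 1, but the gene was Dusp1. The count of 6 genes whose 6 h and control values did not overlap became 5 under 3 of the 5 settings that apply to it (FPKM and assembled rows added or in place).

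For the 47 glucocorticoid-induced genes, 15 called higher with desflurane became 6 with a fold limit of 3, and 8 with sevoflurane became 16 with a limit of 1.5 and 4 with a limit of 3. The 1 called lower with desflurane became 2 with assembled rows added or in place or no TPM limit, 4 with a limit of 1.5, and 0 with a limit of 3 or a pseudocount of 1 TPM. The 1 called lower with sevoflurane became 4 with a limit of 1.5. No paired analysis was possible because each condition has 1 library, and for the same reason no library could be left out.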

Other observations

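In a list of 13 measured clock genes, desflurane had 2 called higher (background 2.79%) and 0 called lower (1.48%). Sevoflurane had 0 called higher (background 2.23%) and 1 called lower (3.3%). Per3, a period gene like the glucocorticoid target Per1, was at 22.6 and 35.5 TPM in the sevoflurane pair and 14.1 and 32.3 TPM in the desflurane pair. Nr1d1 and Dbp, the most abundant of the list, were called by neither agent. Between the controls, which were sacrificed at the same hour, 1 clock gene was called higher and 1 lower, each against a background of 1.17%.

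The genes nearest in pattern to the called genes over the 4 libraries, by Euclidean distance of centered log2(TPM + 1) among 9136 genes, were as follows. For Klf9 they were Serpina5 (distance 0.0341), Tp53inp1 (0.0342), and Slc37a4 (0.0616). For Mt2A they were Usp2 (0.256), Cyp3a18 (0.310), and Rdh16 (0.429), and each of these was lowest in the desflurane control. For Sgk1 they were Hsd3b5 (0.175), Upp1 (0.221), and Alas2 (0.227), all highest in the sevoflurane control. For Dusp1 they were Ppp1r3b (0.477), Angptl8 (0.678), and Tubb2a (0.684), all highest in the desflurane control. With 4 libraries such distances are a description only.

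Assembled rows on the strand opposite to a gene overlapped the spans of Fkbp5, Nr3c1, and Klf9. Within Fkbp5 they summed to 1.37 TPM in the sevoflurane control and 1.47 TPM after 6 h of sevoflurane. They summed to 1.35 TPM in the desflurane control and 2.26 TPM after 6 h of desflurane. The row of the sevoflurane 6 h library (chr20:8011070-8012656) did not overlap those of the other libraries, so these sums are not levels of a single transcript. At Klf9, an opposite row of 4.79 TPM was present in the sevoflurane 6 h library and in no other. It began outside the span of the gene, and its coverage was low, at 1.22.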
